A study of Mus musculus with 18 samples.

Results

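The livers described here came from adult male C57Bl/6N mice injected with CCl4 for 10 weeks, and they were set against livers of control mice. The members were fixed by the sample labels: 3 arrays labelled CCl4 at week 10 and 3 labelled control, 6 of the 18 arrays in the series, with all 23111 named genes read on each. Treated mice received 1.6 g/kg CCl4 intraperitoneally in olive oil 2 times per week and were killed 2 days after the last injection. By the labels the mice of both groups were 20 weeks old. The sources differ on the controls, which the array methods call untreated while other passages call them oil-treated. RNA came from the right liver lobe, so each array mixes hepatocytes with stellate cells, macrophages, endothelium and bile duct cells. In such bulk tissue, fewer cells of a type and less RNA per cell cannot be told apart. The labels call the arrays biological replicates, 1 mouse each, and the values are log2 RMA intensities, the log2 scale on which 1 unit is a doubling.

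CCl4 is turned into a radical by cytochrome P450 2E1, an enzyme of the hepatocytes around the central vein, and these hepatocytes die first. Macrophages clear the debris, and stellate cells, the vitamin A storing cells of the sinusoids, turn into myofibroblasts that lay down collagen. The male liver also carries a set of genes kept high by the pulses of growth hormone typical of males, among them steroid enzymes, urinary proteins and transporters. Injured hepatocytes further change how they make and take up sterols and fatty acids.

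Alb, the albumin gene, lay at 14.12 on each of the 6 arrays, the top of the scale, where no difference can be seen. None of 11 measured hepatocyte identity genes passed the test, which 2.07% of all genes did. A list this short would hold few or no calls at that share, so the 0 says little. The median log2 change of the list was −0.02. Week 10 replicate 2 stood apart, with RNA of pancreatic acinar cells. Ctrb1, a chymotrypsinogen, read 7.67 there against 4.50 to 5.07 on the 17 other arrays, and Cpb1, a carboxypeptidase, read 6.42 against 3.80 to 3.93. Of 34 measured acinar genes 17 were higher on this array than on every other, 8 by more than 0.5 and 4 by more than 1 on the log2 scale. Each of the other arrays was the highest for 0 to 3 of them. The mean difference of the list from control was 0.46 on replicate 2 and −0.06 and −0.08 on replicates 1 and 3. The other genes above by more than 1 were Cpa1 at 5.27 against at most 4.07 and Spink1 at 5.80 against at most 4.79. Spink1 was not raised on this array alone. It read 4.70 on week 6 replicate 3, 4.70 on week 8 replicate 1 and 4.79 on week 8 replicate 3, against 3.95 to 4.01 in control. Prss1, Prss2, Amy2b, Cela3a and the acinar transcription factor Ptf1a read 4.06, 3.91, 3.72, 3.86 and 3.94, within the range of the other arrays, and none of 10 islet genes was above that range. Replicate 2 is therefore given beside the results, which were also computed without it.

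**Figure D1:**
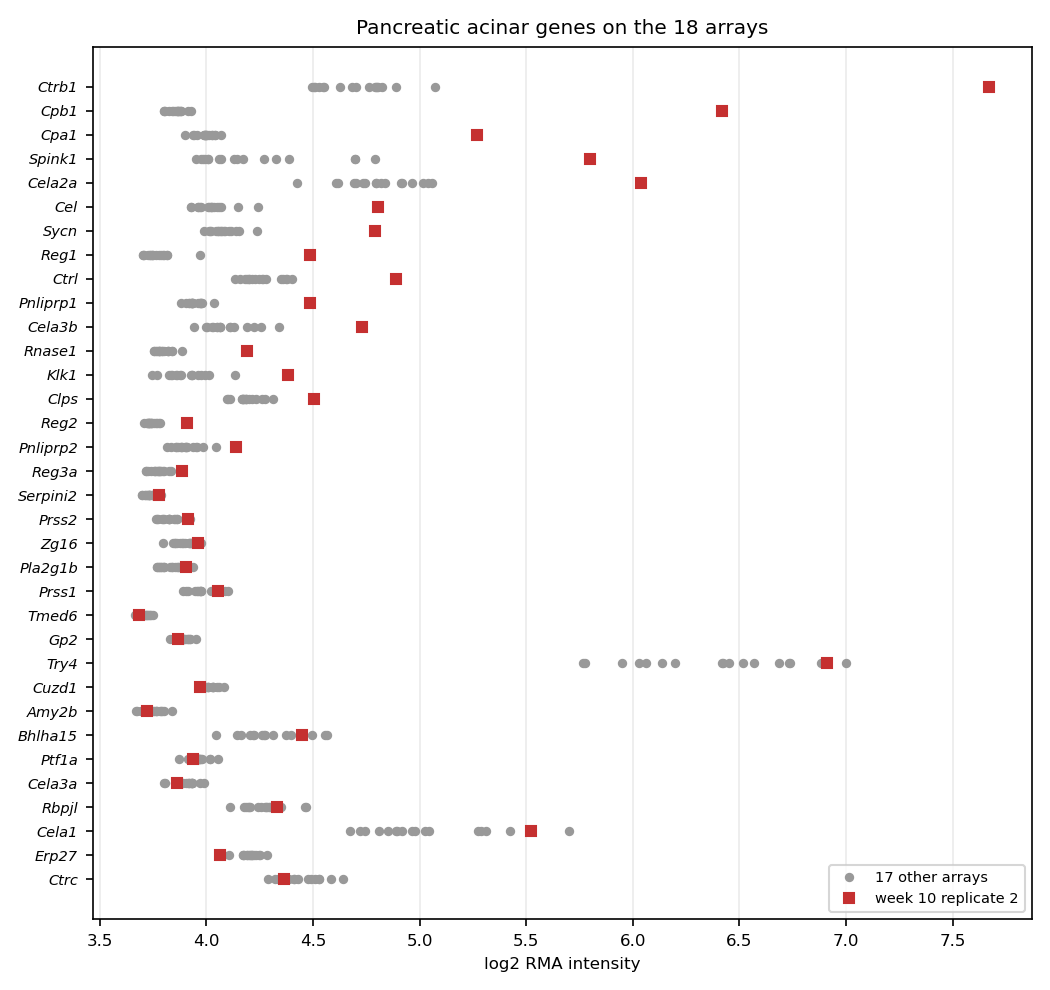
Log2 RMA intensity of 34 pancreatic acinar genes on the 18 arrays (grey points, 17 arrays; red square, week 10 replicate 2), ordered by how far replicate 2 lies above the highest other array. Ctrb1 and Cpb1 lie at 7.67 and 6.42, 2.60 and 2.49 above the highest other array, while 17 genes lie within or below the range of the others.

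After 10 weeks of CCl4, 478 genes had changed against control, 2.07% of the 23111 genes tested by limma. A change was called where the p after Benjamini-Hochberg adjustment was below 0.05 and the groups differed by more than 1.5-fold. Of these 302 rose, 1.31% of all genes, and 176 fell, 0.762%. Each count of called list members below is to be read beside these shares. The 3 week 10 arrays lay wholly on one side of the 3 control arrays for all 478, against 25.6% of all genes (11.1% higher, 14.5% lower). As the 478 were picked on these same arrays, this is no separate support for the calls. Changes beyond 4-fold were seen in 21 rising and 24 falling genes, and the median log2 change was 0.93 among the genes that rose and −0.86 among those that fell. Over all genes the median change was −0.01. Single arrays weighed on the count: it was 290 without week 10 replicate 2, of which 257 were among the 478, 318 without week 10 replicate 1 and 250 without control replicate 3. In each of the 6 fits that left out 1 of the compared arrays, 182 genes were called, 102 higher and 80 lower.

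**Figure D2:**
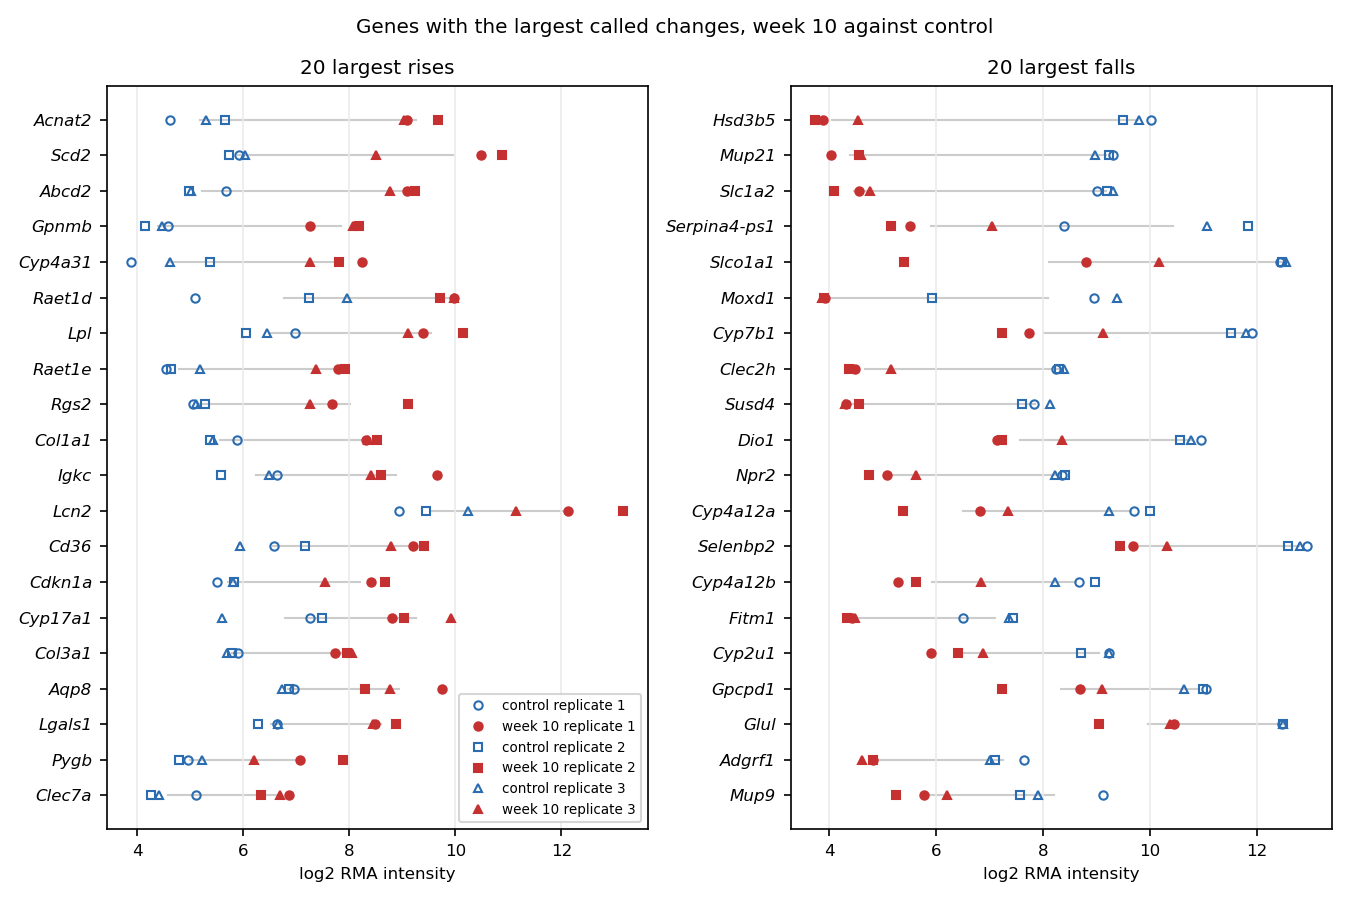
Log2 RMA intensity of the 20 genes that rose most and the 20 that fell most at week 10 against control (open blue, control; filled red, week 10; circle, square and triangle for replicates 1, 2 and 3; grey line between group means). The genes were picked as called and not overlapping; Hsd3b5 spans the widest gap, from a mean of 9.77 in control to 4.06 at week 10.

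Many of the deepest falls belonged to genes of the male liver, as 10 of the 20 largest called falls did. Of 22 measured male-biased genes 15 fell and 0 rose, against 0.762% of all genes that fell, and the median log2 change was −2.02. Hsd3b5, a steroid dehydrogenase found in the livers of male mice, stood at 10.02, 9.50 and 9.79 in control livers and at 3.89, 3.74 and 4.53 at week 10. It had thus dropped near the floor of the arrays in each treated liver, a log2 change of −5.72 (SE 0.82, adjusted p = 0.00276). Where 1 group lies near the floor, here and for the genes that follow, the size of a change is a lower bound. Mup21, a major urinary protein, went from 9.30, 9.22 and 8.97 to 4.04, 4.55 and 4.59, a change of −4.77 (SE 0.34, adjusted p = 2.11e-05). Susd4, which encodes a complement regulator, went from 7.83, 7.61 and 8.13 to 4.32, 4.56 and 4.30, a change of −3.46 (SE 0.17, adjusted p = 5.28e-07). These 3 genes fell to similar low levels in all treated mice.

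Other male-biased genes fell less evenly. Slco1a1, a transporter of organic anions and bile acids, held 12.43, 12.47 and 12.54 in control livers and read 8.80, 5.40 and 10.16 at week 10. The treated livers were thus far apart, and the change of −4.36 (SE 1.07, adjusted p = 0.0352) lost its call without any 1 of the 3 control arrays or of week 10 replicates 1 and 2, at adjusted p = 0.0619 to 0.102. Cyp7b1, a hydroxylase of oxysterols, went from 11.90, 11.51 and 11.80 to 7.73, 7.23 and 9.12 (−3.71, adjusted p = 0.00569), and Selenbp2, a selenium-binding protein, from 12.94, 12.58 and 12.81 to 9.69, 9.43 and 10.31 (−2.97, adjusted p = 0.00844). In both, replicate 3 kept the highest level of the treated livers. Moxd1, a copper-dependent monooxygenase, read 8.96, 5.91 and 9.38 in control and 3.92, 3.91 and 3.86 at week 10 (−4.19, adjusted p = 0.00326), so here the uneven group was the control. With the compared groups fitted alone, without the spread of the other weeks, Moxd1 was not called (adjusted p = 0.0753). Cyp4a12a and Cyp4a12b, which hydroxylate fatty acids, fell, with log2 changes of −3.13 and −2.71 (adjusted p = 0.015 and 0.00816), with the call of Cyp4a12a lost without control replicate 2 (0.0503) or week 10 replicate 2 (0.0573). Their sequences are nearly alike, as are those of the urinary proteins Mup21 and Mup9, so probes may not separate them. Elovl3, a fatty acid elongase, read 9.84, 9.51 and 10.04 in control and 4.31, 4.30 and 8.20 at week 10, and with this spread it was not called (−4.20, SE 1.41, adjusted p = 0.106).

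Without week 10 replicate 2, 9 male-biased genes were called, without replicate 1 it was 10, and without replicate 3 it was 16. All 22 had lower means at week 10, and in 21 of them the groups did not overlap, against 14.5% of all genes that lay wholly lower. The list mean on the 3 treated arrays was −2.52, −2.75 and −1.80 relative to control. Of 20 female-biased genes 1 rose, Cyp17a1, a steroid hydroxylase, from 7.26, 7.50 and 5.61 to 8.81, 9.03 and 9.91 (2.46, adjusted p = 0.0136). Cyp2c40 of the same list fell, from 7.99, 8.39 and 7.96 to 5.77, 5.45 and 6.10 (−2.34, adjusted p = 0.00127). Cyp2b9, a P450 that male livers normally keep silent, stood at 3.85, 3.76 and 3.77 in control and at 9.68, 6.14 and 9.0 at week 10. The groups were far apart, yet the log2 difference of 4.48 did not pass the test (SE 1.31, adjusted p = 0.0671). The median of the female-biased list was 0.01. Of 14 genes of the growth hormone and IGF axis 1 fell, Igfbp2 (−0.61, adjusted p = 0.0204), whose call was lost without control replicate 1 or week 10 replicates 1 or 3 (0.0592 to 0.0643).

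Of 18 genes of the hepatocytes around the central vein 3 fell and 0 rose, against 0.762% of all genes that fell. Slc1a2, a glutamate transporter of the last hepatocytes before the central vein, went from 9.02, 9.19 and 9.30 to 4.56, 4.10 and 4.76. The fall of 4.70 on the log2 scale (SE 0.15) had the smallest adjusted p of the named genes, 4.47e-09. Glul, glutamine synthetase, went from 12.47, 12.49 and 12.48 to 10.44, 9.05 and 10.38 (−2.53, SE 0.34, adjusted p = 0.00203), and Lhpp, a phosphatase, from 7.75, 7.93 and 8.52 to 5.79, 5.05 and 7.14 (−2.07, adjusted p = 0.0142, and 0.0634 without control replicate 3). Oat, ornithine aminotransferase, read 11.28, 11.63 and 11.74 in control and 9.21, 7.68 and 10.85 at week 10, without a call (adjusted p = 0.0660). Cyp2e1, which activates CCl4, read 13.82, 13.88 and 13.88 in control and 13.27, 12.29 and 13.56 at week 10 (−0.82, SE 0.26, adjusted p = 0.0873). Its groups did not overlap, and the lowest level was on replicate 2. Lgr5 and Axin2, both Wnt targets of the same zone, had changes of 0.11 and −0.04. The pericentral list mean was −0.69, −1.29 and −0.42 on replicates 1, 2 and 3. Of 16 periportal genes 3 rose: Aldh1b1, a mitochondrial aldehyde dehydrogenase (1.38, adjusted p = 0.00165), Ctsc, cathepsin C (1.02, adjusted p = 0.0445), and Gldc, glycine decarboxylase (0.72, adjusted p = 0.00877). The call of Ctsc was lost without any 1 control array, week 10 replicates 1 and 2, or 6 of the arrays of other weeks, at adjusted p up to 0.155.

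Part of the cholesterol synthesis genes rose and none fell. Of 20 measured members 10 rose and 0 fell, against 1.31% of all genes that rose, and the median log2 change was 0.76. Lss, which closes the sterol ring, went from 8.27, 7.62 and 7.72 in control to 10.22, 9.55 and 9.49 at week 10 (1.88, SE 0.31, 3.68-fold, adjusted p = 0.00619). Hmgcs1, the synthase that feeds the pathway, went from 11.06, 10.14 and 10.26 to 12.34, 11.66 and 12.25 (1.60, SE 0.28, adjusted p = 0.00835). Control replicate 1 was the highest control liver for both, and all treated livers lay above it. Sqle, squalene epoxidase, went from 8.87, 8.35 and 8.52 to 10.00, 9.91 and 9.70 (1.29, adjusted p = 0.00816), and Mvd, mevalonate decarboxylase, from 6.44, 6.06 and 6.12 to 7.79, 7.18 and 7.41 (1.25, adjusted p = 0.0123). Pmvk, the kinase before Mvd, rose by 1.08 (adjusted p = 0.0279), and Srebf2, the transcription factor that drives the pathway, rose by 0.66 (adjusted p = 0.0442). Dhcr7, Cyp51, Fdft1 and Nsdhl, enzymes of later or middle steps, rose by 1.05, 1.03, 0.91 and 0.68, and of these 4 only Dhcr7 was called in each fit that left out 1 of the compared arrays. Insig1, a sterol-controlled brake on the pathway, read 11.10, 10.93 and 11.05 in control and 11.86, 11.95 and 12.02 at week 10, and its change of 0.92 missed the threshold (adjusted p = 0.0544), though it was called under 9 of the alternatives, with adjusted p = 0.00817 where the compared groups were fitted alone. Idi1, Fdps, Stard4 and Tm7sf2 had changes of 0.10, 0.25, 0.02 and −0.0043, with overlapping groups. Without week 10 replicate 2 the count was 6, without replicate 1 it was 5, and without control replicate 3 it was 5. Lss, Hmgcs1, Sqle and Mvd were called in each fit that left out 1 array, but Hmgcs1 was not called with the compared groups fitted alone (adjusted p = 0.05415). The call of Pmvk was lost without control replicates 2 or 3 or week 10 replicates 1 or 2 (adjusted p = 0.0528 to 0.0948), and that of Srebf2 without any 1 of 11 arrays, at adjusted p up to 0.134.

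Promoters are shown for the 3 genes of this list that rose most among those with a single promoter in the RefSeq table (GRCm38.p6), because 10 of its members were called in 1 direction. Each runs from 250 bases before the start site to 50 after it on the strand of the gene, 5′ to 3′, and capitals mark the CCAAT box, read as CCAAT or as its reverse complement ATTGG. The windows lie at chr10:76531355-76531654 on the plus strand for Lss, chr13:119690101-119690400 on the plus strand for Hmgcs1 and chr8:122443373-122443672 on the minus strand for Mvd.
Lss: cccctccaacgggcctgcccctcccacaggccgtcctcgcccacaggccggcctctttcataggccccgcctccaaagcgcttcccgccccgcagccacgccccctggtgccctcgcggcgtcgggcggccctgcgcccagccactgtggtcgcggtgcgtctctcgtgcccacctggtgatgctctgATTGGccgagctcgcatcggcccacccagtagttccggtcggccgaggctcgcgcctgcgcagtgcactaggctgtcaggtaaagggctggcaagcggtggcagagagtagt
Hmgcs1: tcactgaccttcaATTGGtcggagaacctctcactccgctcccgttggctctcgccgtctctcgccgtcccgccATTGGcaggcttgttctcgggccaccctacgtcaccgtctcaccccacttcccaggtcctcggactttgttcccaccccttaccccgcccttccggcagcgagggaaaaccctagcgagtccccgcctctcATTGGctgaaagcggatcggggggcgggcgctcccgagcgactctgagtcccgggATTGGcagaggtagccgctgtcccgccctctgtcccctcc
Mvd: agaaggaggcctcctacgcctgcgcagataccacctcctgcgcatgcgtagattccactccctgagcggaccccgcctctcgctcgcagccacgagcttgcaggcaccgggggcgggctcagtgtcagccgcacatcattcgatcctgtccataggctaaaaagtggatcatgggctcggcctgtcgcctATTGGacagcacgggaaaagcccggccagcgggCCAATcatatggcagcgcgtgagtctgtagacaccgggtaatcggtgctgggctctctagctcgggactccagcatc
Lss holds 1 box, starting 62 bases before the start site, Hmgcs1 holds 4 and Mvd 2. Of 20 cholesterol genes 16 have a promoter in the table, and all 16 hold CCAAT on either strand, against 41.9% of the 17491 measured genes with a promoter. The GC box GGGCGG was present in 15 of 16 (49.8% of all), TATAAA in 0 of 16 (14.1%), and TCACNCCAC, a form of the sterol regulatory element, in 1 of 16 (1.41%). Among all genes that rose the share with CCAAT was 47.9% of 236, and among those that fell 41.6% of 137. A gene with several start sites was counted where any window held the motif. Matches are letters in a window, not shown sites, and the motifs given were chosen after their counts were seen.

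Fatty acid synthesis showed a narrower set of calls. Of 21 genes 4 rose and 0 fell, against 1.31% of all genes that rose. Scd2, a desaturase that normal adult liver expresses weakly, went from 5.93, 5.73 and 6.03 to 10.49, 10.88 and 8.51 (4.06, SE 0.64, 16.7-fold, adjusted p = 0.00464), with the smallest rise on replicate 3. Acly, ATP citrate lyase, went from 10.98, 10.76 and 10.96 to 12.54, 12.01 and 11.75 (1.20, adjusted p = 0.0313), and the elongases Elovl5 and Elovl1 rose by 0.97 and 0.64 (adjusted p = 0.0265 and 0.00816). The lipogenic genes Fasn, Acaca and Acss2 had non-overlapping groups but no call. Fasn, fatty acid synthase, read 11.24, 11.10 and 11.39 in control and 12.75, 12.03 and 11.63 at week 10 (0.89, SE 0.39, adjusted p = 0.211), with replicate 1 highest and replicate 3 close to control. Scd1, the main hepatic desaturase, differed by 0.42 (adjusted p = 0.231), and Srebf1, the factor behind lipogenesis, by 0.29 (adjusted p = 0.523, overlapping groups). The call of Acly was lost without any 1 of the control arrays or week 10 replicates 1 or 2 (0.0708 to 0.0961), that of Elovl5 without control replicates 1 or 3 or week 10 replicates 1 or 2 (0.0588 to 0.101), and that of Elovl1 without control replicate 2, where its fold fell below 1.5.

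The largest called rise was that of Acnat2, a peroxisomal acyltransferase that joins fatty acids to amino acids. It went from 4.63, 5.66 and 5.30 to 9.10, 9.67 and 9.04 (4.07, SE 0.30, 16.8-fold, adjusted p = 2.25e-05). Abcd2, a peroxisomal importer of long acyl chains that is usually low in liver, went from 5.68, 4.98 and 5.01 to 9.09, 9.24 and 8.78 (3.81, SE 0.21, adjusted p = 1.39e-06). Both rose by about the same amount in each treated mouse. Crat, carnitine acetyltransferase, rose by 1.29 (adjusted p = 0.00844) and Pex11a, a factor of peroxisome division, fell by 0.88 (adjusted p = 0.00373), which makes 3 rising and 1 falling of 19 genes of fatty acid handling. Cpt1a, the gate of mitochondrial oxidation, read 11.49, 11.47 and 11.47 in control and 11.05, 10.97 and 11.05 at week 10, a difference under the 1.5-fold required (−0.46, adjusted p = 0.0366), and was not counted. In the family of the fatty acid hydroxylases, Cyp4a31 rose from 3.90, 5.38 and 4.61 to 8.24, 7.81 and 7.27 (3.14, adjusted p = 0.00305), opposite to Cyp4a12a and Cyp4a12b. Of 15 measured genes in the list of PPAR alpha and CYP4A 1 rose and 2 fell, and the highest difference in it, 3.17, had no call. Cyp4a14 read 4.08, 5.09 and 4.04 in control and 8.73, 6.24 and 6.75 at week 10 (2.83, adjusted p = 0.0668), without a call. Ppara, the receptor that usually drives this family, differed by −0.38 (adjusted p = 0.0891).

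Of 25 genes of lipid droplets, uptake and binding 4 rose and 3 fell, and the median log2 change was −0.04. Lpl, lipoprotein lipase, went from 6.99, 6.06 and 6.45 to 9.39, 10.14 and 9.11 (3.05, SE 0.47, adjusted p = 0.00414), and Cd36, a fatty acid translocase, from 6.58, 7.16 and 5.94 to 9.20, 9.40 and 8.78 (2.57, SE 0.29, adjusted p = 0.000751). Lpl is also counted in the list of scar-associated macrophages below, and the cell type behind its rise was not tested. Apoa4, an apolipoprotein, rose by 1.87 (adjusted p = 0.00423) and Fabp4, a fatty acid binding protein of adipocytes, macrophages and endothelium, by 1.03 (adjusted p = 0.0193). Fitm1, which helps to form droplets, went from 6.51, 7.44 and 7.35 to 4.43, 4.33 and 4.49 (−2.68, SE 0.19, adjusted p = 2.11e-05). Its relative Fitm2 fell by 0.85 and Pnpla2, the first lipase of droplets, by 0.61. The droplet coat genes Plin2 and Plin3 differed by 0.41 and 0.60, without a call (adjusted p = 0.0563 and 0.107). The adipose marker list had 0 of 7 genes called, with a mean of −0.28 on replicate 2 as its most distant array. Of Fitm2 and Pnpla2 only Fitm2 was called in each fit that left out 1 of the compared arrays, and the call of Fabp4 was lost without control replicate 3 or week 10 replicates 2 or 3 (0.054 to 0.0788).

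Sterol export and bile acid genes leaned the other way, with 0 of 22 rising and 3 falling, 2 of them the male-biased Cyp7b1 and Slco1a1. The third was Abcg8, a biliary sterol exporter, which fell by 0.63 (adjusted p = 0.0162, and 0.0532 to 0.0635 without control replicates 1 or 3 or week 10 replicate 2). Cyp7a1, the first enzyme of bile acid synthesis, read 11.43, 11.01 and 11.48 in control and 11.89, 9.48 and 11.55 at week 10. Cyp8b1, which sets the kind of bile acid made, read 10.71, 9.56 and 10.45 in control and 8.90, 5.37 and 9.72 at week 10. Both had overlapping groups, with replicate 2 lowest by far, and neither was called (adjusted p = 0.794 and 0.256).

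**Figure D3:**
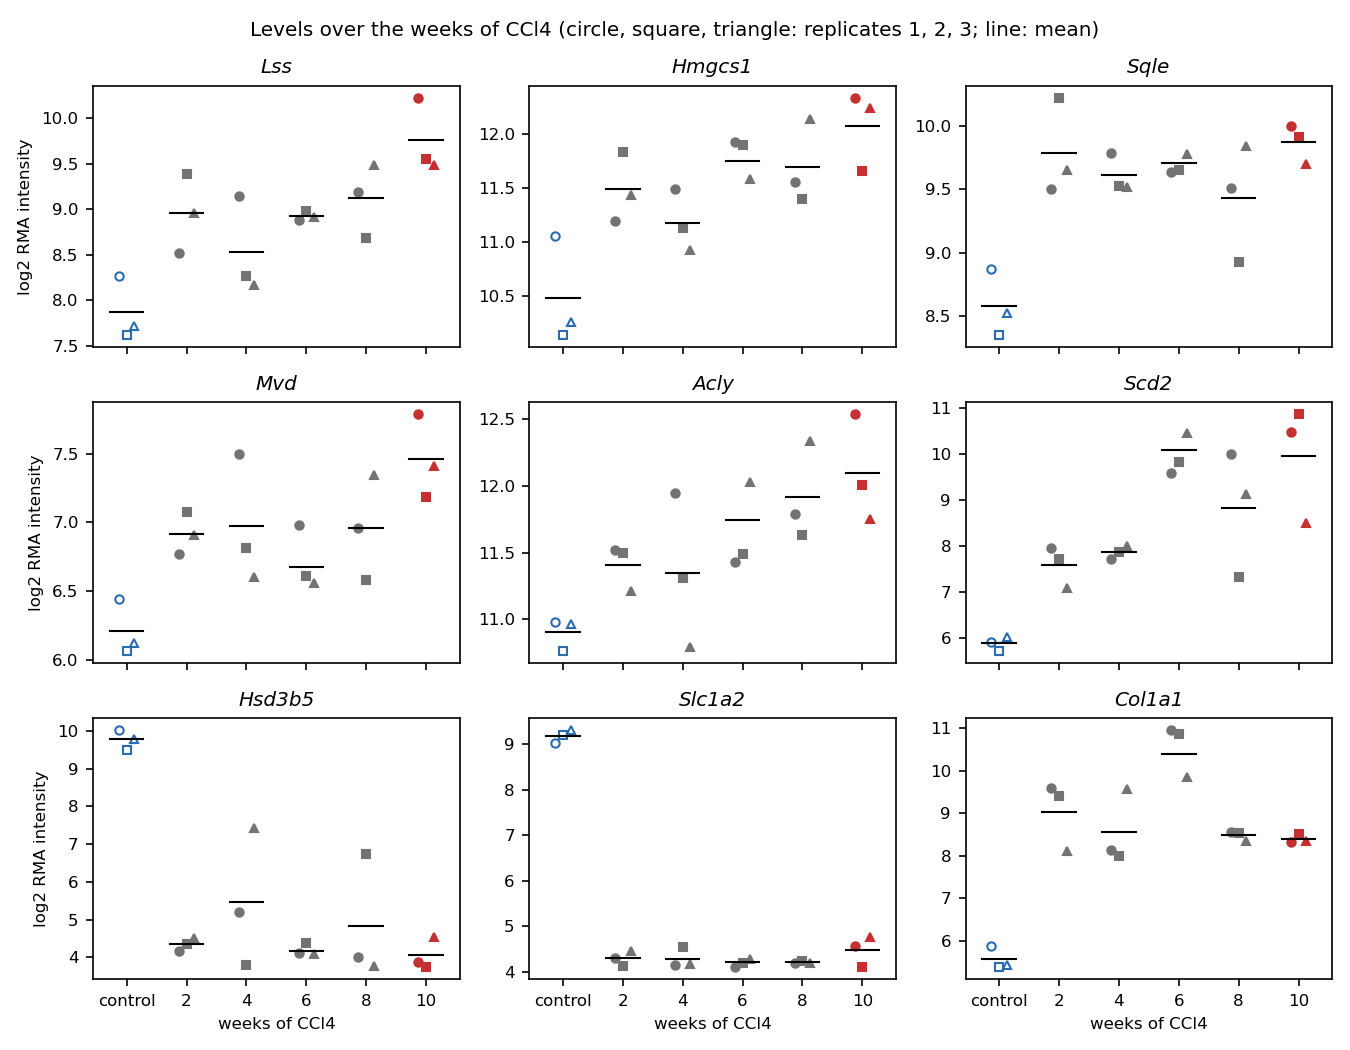
Log2 RMA intensity of 9 genes in control livers (open blue), after 2 to 8 weeks of CCl4 (grey) and after 10 weeks (red), 3 arrays per group (circle, square, triangle for replicates 1, 2, 3), with the group mean as a line. Lss, Hmgcs1, Mvd and Acly have their highest group mean at week 10, Slc1a2 lies low at all weeks of CCl4, and Col1a1 lies at 8.32 to 8.52 at week 10.

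Scar collagen was raised in all 3 treated livers. Of 17 collagen genes 5 rose and 0 fell, against 1.31% of all genes that rose. Col1a1 read 5.88, 5.38 and 5.43 in control and 8.32, 8.52 and 8.35 at week 10, a close set of treated livers (2.83, SE 0.43, 7.11-fold, adjusted p = 0.00395). Col3a1, the second fibrillar collagen of scars, went from 5.90, 5.78 and 5.70 to 7.73, 7.95 and 8.05 (2.12, adjusted p = 0.00496), and Col1a2 from 5.77, 5.45 and 5.16 to 7.51, 7.29 and 7.51 (1.97, adjusted p = 0.0146, and 0.0625 without control replicate 3). The basement membrane chains Col4a1 and Col4a2 rose by 0.92 and 0.63 (adjusted p = 0.00561 and 0.0245). The median over the collagens was 0.18, with values of −0.10, −0.15 and −0.14 for Col5a1, Col5a3 and Col16a1. Of 20 matrix proteins 4 rose: Sparc, which binds collagen (1.32, adjusted p = 0.00275), Lum, a collagen-ordering proteoglycan (1.59, adjusted p = 0.0173), Nid1, which links basement membranes (1.91, adjusted p = 0.0372), and the laminin chain Lamc1 (0.999, adjusted p = 0.0129). Nid1 stood at 6.96, 8.43 and 6.86 at week 10, highest on replicate 2. Of 19 matrix enzymes and inhibitors 2 rose, Mmp2, a gelatinase, by 1.82 (adjusted p = 0.0159) and Mmp14, which activates it, by 1.51 (adjusted p = 0.00311). Timp1, an inhibitor of these proteases, read 4.07, 4.14 and 4.33 at week 10 against 3.98 to 4.09 in control, near the floor. Single arrays ended the calls of Col4a2 (control replicates 2 and 3, week 10 replicates 2 and 3, adjusted p = 0.0501 to 0.091), Nid1 (all control arrays, week 2 replicate 1, week 10 replicates 1 and 2, 0.0504 to 0.124), Lum and Mmp2 (control replicate 3 and week 10 replicate 1, 0.0559 to 0.0739) and Lamc1 (control replicate 3 and week 10 replicate 2, 0.0573 and 0.0511).

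Of 17 genes of activated stellate cells 2 rose. Pdgfrb, the receptor through which stellate cells divide, went from 6.03, 6.03 and 6.24 to 7.54, 6.88 and 7.15 (1.09, adjusted p = 0.0109), and Gas6, a ligand of the TAM receptors, from 7.23, 7.30 and 7.39 to 9.19, 8.91 and 8.16 (1.44, adjusted p = 0.0215). Acta2, smooth muscle actin of myofibroblasts, read 6.16, 6.05 and 5.96 in control and 6.92, 6.73 and 6.82 at week 10. Its groups were apart, but the change of 0.77 was not called (SE 0.34, adjusted p = 0.218). It was called with the compared groups fitted alone (adjusted p = 0.0130) and without week 6 replicate 3 (0.0132), at the same log2 change. Tagln, Des and Cnn1, further contractile or filament genes, differed by −0.06, −0.01 and 0.01. Ccn2 and Tgfb2 differed by 0.19 and 0.15 (adjusted p = 0.676 and 0.119). Of 9 genes of quiescent stellate cells 1 fell, Ecm1 (−1.001, adjusted p = 0.0251). Gas6 was not called without any 1 control array or week 10 replicates 1 or 2 (0.0576 to 0.0729), and Ecm1 without any 1 control array or week 10 replicate 2 (0.0538 to 0.0888).

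Macrophage genes rose broadly. Of 19 genes of macrophages and monocytes 9 rose and 0 fell, with a median of 0.76, and of 14 genes of scar-associated macrophages 6 rose and 0 fell, with a median of 1.24. Lpl, given above, is among these 6, and Cd68 is in both lists. The share of all genes that rose was 1.31%. Gpnmb, a lysosomal glycoprotein of lipid-laden macrophages, went from 4.58, 4.16 and 4.47 to 7.27, 8.19 and 8.07 (3.44, SE 0.49, adjusted p = 0.00275). Clec7a, the beta-glucan receptor, went from 5.10, 4.26 and 4.41 to 6.86, 6.34 and 6.69 (2.04, adjusted p = 0.00668), and Cd9, a tetraspanin, from 6.04, 6.58 and 6.48 to 7.94, 8.50 and 7.48 (1.61, adjusted p = 0.00569). Adgre1, which encodes F4/80, read 6.18, 5.33 and 5.44 in control and 7.11, 7.02 and 6.97 at week 10 (1.38, adjusted p = 0.0148). Cybb, the oxidase of phagocytes, rose by 1.69 (adjusted p = 0.00569), Laptm5 by 1.66 (adjusted p = 0.00451) and Ctss, cathepsin S, by 1.29 (adjusted p = 0.00835). Cd68 rose by 1.615 (adjusted p = 0.0282) and Fcer1g by 1.33 (adjusted p = 0.0402). Trem2, a lipid receptor of the same macrophages, read 4.48, 4.82 and 4.77 in control and 5.58, 5.68 and 5.45 at week 10, without a call (adjusted p = 0.0904). The monocyte genes Ccr2 and Ly6c2 differed by 0.27 and 0.34, also without a call. Of 10 Kupffer cell genes 1 rose and 1 fell: Vsig4, a complement receptor, rose by 1.30 (adjusted p = 0.0213) and Cd163, the haptoglobin-haemoglobin receptor, fell by 0.74 (adjusted p = 0.0324). Without week 10 replicate 2 the macrophage and monocyte count was 4, without replicate 1 it was 3 and without control replicate 3 it was 3, and the scar-associated count was 5 in each of these fits. Adgre1 lost its call without control replicates 2 or 3 (0.0533 and 0.0634), Vsig4 without control replicates 2 or 3 or week 10 replicates 1 or 2 (0.0608 to 0.0809), and Cd163 without control replicates 1 or 3 or week 10 replicates 1 or 3 (0.0681 to 0.108). The call of Cd68 was lost without any 1 control array or week 10 replicates 1 or 2 (0.0503 to 0.102). That of Fcer1g was lost without any 1 of 10 arrays, at adjusted p up to 0.133.

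Of 8 class II histocompatibility genes 3 rose: H2-Ab1 by 1.46, H2-Aa by 1.30 and Cd74, their invariant chain, by 1.17 (adjusted p = 0.0227, 0.0407 and 0.029). Replicate 1 was the highest, at 9.39 for H2-Ab1 against 8.31 and 8.21 on replicates 2 and 3, and none of the 3 was called without it (0.0608 to 0.0893). Each was also lost without control replicates 2 or 3 (0.0566 to 0.125), H2-Aa and Cd74 without control replicate 1 (0.0611 and 0.07), H2-Aa without any 1 of 4 arrays of earlier weeks (0.0514 to 0.0541), and Cd74 without week 10 replicate 2 (0.0589). Of 20 interferon and class I genes 1 rose, H2-Q1, a class I molecule, from 5.45, 5.39 and 5.35 to 7.54, 7.08 and 6.80 (1.74, adjusted p = 0.00784). Raet1d and Raet1e, near-identical ligands of the NK receptor NKG2D that probes may not separate, rose by 3.12 and 2.90 (adjusted p = 0.00989 and 0.00127). Igkc, the kappa light chain, went from 6.63, 5.59 and 6.49 to 9.66, 8.61 and 8.41 (2.65, adjusted p = 0.0157), and was lost without control replicate 2 or week 10 replicate 1 (0.0557 and 0.0556). None of the 9 measured genes in the list of B and plasma cells, which does not hold Igkc, was called, and the B cell gene Cd79a stood at 3.93 to 3.98 in control and 4.03 to 4.26 at week 10, near the floor. Of 18 lysosome and phagosome genes 4 rose: Ctss and, by 0.61 to 0.63, the acid lipase Lipa, cathepsin D, Ctsd, and the proton pump subunit Atp6v1b2 (adjusted p = 4.44e-05, 0.0310 and 0.0297). Without week 10 replicate 2 only Ctss of these 4 was called, Lipa because its fold fell below 1.5. Ctsd and Atp6v1b2 were also lost without any 1 control array or week 10 replicate 1, and Atp6v1b2 without replicate 3 (0.055 to 0.0921). Cxcl16 was the 1 gene called of 25 chemokines and receptors (0.76, adjusted p = 0.0381), and it lost its call without any 1 of the 6 compared arrays (0.0713 to 0.104).

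**Figure D4:**
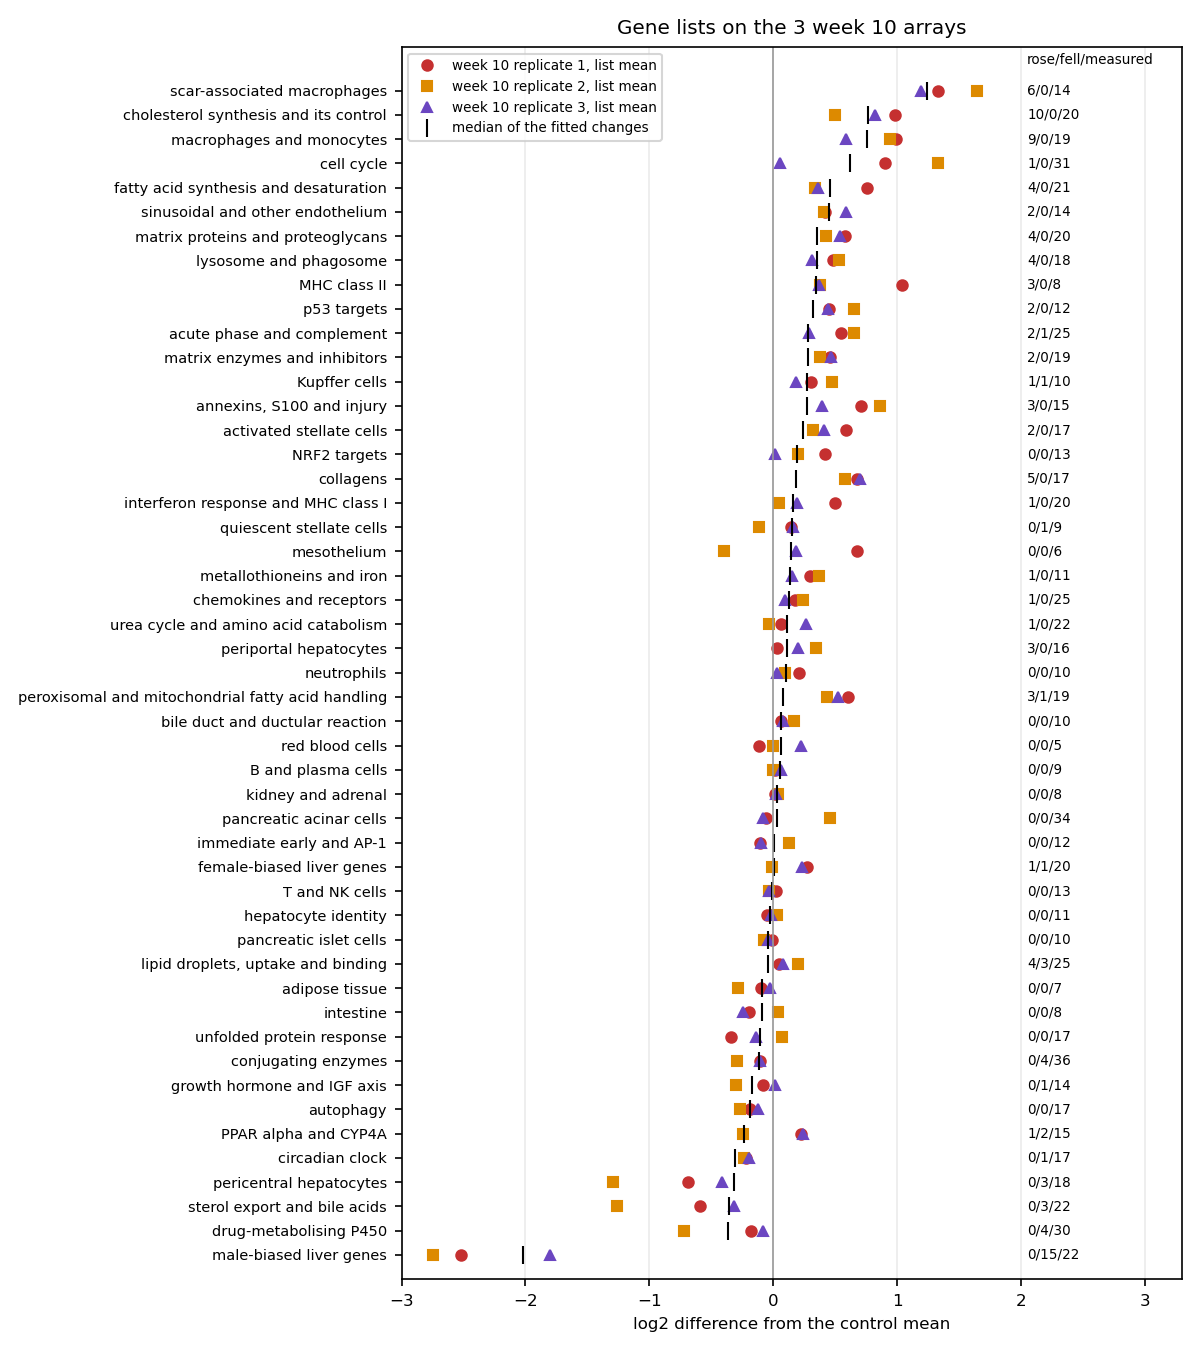
Mean log2 difference from the control mean for each gene list on week 10 replicates 1, 2 and 3, with the median of the fitted changes as a bar and, at the right, how many members rose, fell and were measured. Male-biased genes lie lowest (0/15/22) and scar-associated macrophage genes highest (6/0/14), while the acinar list is raised on replicate 2 only.

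Dividing-cell genes set the treated mice apart from each other. Of 31 cell cycle genes 1 rose, Ccnd1, cyclin D1, from 7.13, 6.99 and 7.71 to 9.52, 9.73 and 8.29 (1.91, adjusted p = 0.017). Mki67, the proliferation marker, read 5.42, 5.22 and 4.82 in control and 7.49, 8.44 and 5.59 at week 10, and Mcm6, a helicase subunit of DNA replication, 4.18, 4.70 and 4.73 in control and 7.17, 7.31 and 4.995 at week 10. Both were high on replicates 1 and 2 and near control on replicate 3 (adjusted p = 0.175 and 0.178). The list mean was 0.90, 1.33 and 0.06 on replicates 1, 2 and 3, and without replicate 3 the count of calls was 2. Cdkn1a, the p53 target that halts the cycle, went from 5.51, 5.83 and 5.82 to 8.41, 8.68 and 7.54 (2.49, adjusted p = 0.0238), and Ccng1, a cyclin under p53, rose by 0.94 (adjusted p = 0.0136). These were the 2 of 12 p53 targets called, and Mdm2 differed by 0.35 (adjusted p = 0.127). Ccnd1 was lost without control replicates 1 or 2 or week 10 replicates 1 or 2 (0.0549 to 0.0677), Cdkn1a without any 1 control array or week 10 replicates 1 or 2 (0.0568 to 0.0853), and Ccng1 without control replicate 3 or week 10 replicate 2 (0.0602 and 0.0555).

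**Figure D5:**
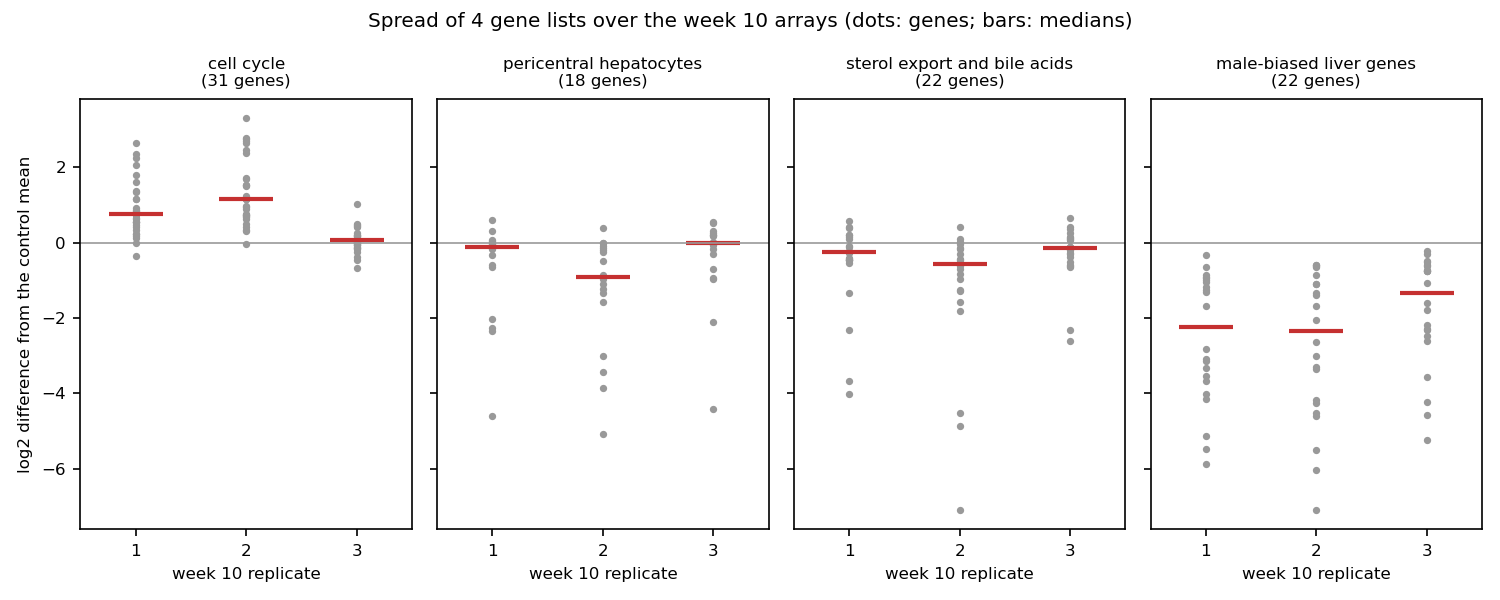
Log2 difference from the control mean of each gene of 4 lists on week 10 replicates 1, 2 and 3 (dots, genes; red bars, medians). Cell cycle genes lie above control on replicates 1 and 2 and around it on replicate 3, and pericentral and bile acid genes lie lowest on replicate 2.

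Among other genes of injury, Lcn2, a siderophore-binding protein of the acute phase, went from 8.93, 9.45 and 10.24 to 12.12, 13.17 and 11.15 (2.61, adjusted p = 0.0193), and Apcs, serum amyloid P, from 8.15, 7.91 and 8.44 to 9.86, 9.85 and 9.20 (1.47, adjusted p = 0.00564). C6, a complement component that is higher in male livers, fell by 1.38 (adjusted p = 0.00887), so that 2 of 25 acute phase and complement genes rose and 1 fell. Saa1 and Saa2, the acute phase amyloids, spanned 10.36 to 12.54 and 8.21 to 12.03 within the control group and were not called. Of 15 annexin, S100 and injury genes 3 rose: Anxa2 by 1.77, Anxa5 by 1.15 and S100a10 by 1.15 (adjusted p = 0.0288, 0.0125 and 0.00305). Hamp2, a hepcidin, rose by 1.67 (adjusted p = 0.0184) as the 1 of 11 metallothionein and iron genes. Rgs2, a regulator of G-protein signals, went from 5.07, 5.28 and 5.11 to 7.67, 9.12 and 7.27 (2.87, adjusted p = 0.00204). Dio1, which activates thyroid hormone, went from 10.96, 10.55 and 10.76 to 7.14, 7.23 and 8.35 (−3.18, adjusted p = 0.00121), and Npr2, a natriuretic peptide receptor, from 8.35, 8.42 and 8.22 to 5.08, 4.74 and 5.62 (−3.18, adjusted p = 2.25e-05). Single arrays ended the calls of Lcn2 (control replicates 1 and 2, week 10 replicates 1 and 2, adjusted p = 0.0523 to 0.0715), Anxa2 (all control arrays, week 10 replicates 1 and 2, 0.0528 to 0.105) and Hamp2 (control replicates 1 and 3, week 10 replicates 1 and 3, 0.0535 to 0.078).

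Of 30 drug-metabolising P450 genes 4 fell and 0 rose, against 0.762% of all genes that fell: Cyp2u1 (−2.66), Cyp2c40 (−2.34), Cyp2d40 (−1.07) and Cyp2d9 (−0.92), 2 of them also in the male-biased list. Without regard to calls, 13 of the 30 lay wholly below control and 7 wholly above, against 14.5% and 11.1% of all genes. The highest difference, 4.48, was that of Cyp2b9, given above, without a call. Cyp2f2, a club cell and periportal P450, read 13.11, 13.10 and 13.11 in control and 12.82, 13.01 and 13.01 at week 10 (−0.16, adjusted p = 0.355). Of 36 conjugating enzymes 4 fell and 0 rose, from −0.76 for Gstp1 to −1.32 for Sult5a1, and none of the 4 was called without week 10 replicate 2 or without replicate 1 (0.0573 to 0.117 and 0.0613 to 0.0988). Sult5a1, Ugt2b5 and Gstp1 were also lost without any 1 control array, Ugt2b38 without control replicates 1 or 2, and Ugt2b5 and Gstp1 without week 10 replicate 3 (0.0503 to 0.119). The call of Cyp2d9 was lost without any 1 control array or week 10 replicates 1 or 2 (0.0546 to 0.111). None of 13 NRF2 targets was called, against 2.07% of all genes, a share at which a list this short would hold few or no calls. Of the 13 genes 5 lay wholly above control and 1 wholly below, against 11.1% and 14.5% of all genes. Of 17 clock genes 1 fell, Ciart, a repressor of the clock (−0.95, adjusted p = 0.0386), and 9 lay wholly below control and 2 wholly above. Over all genes 14.5% lay wholly below and 11.1% wholly above. The hours of killing are not given in the sources used here, and the part of the hour in these values was not tested. Of 14 endothelial genes 2 rose, Cdh5 by 0.79 and Emcn by 0.63 (adjusted p = 0.0037 and 0.0144), and of 22 urea cycle and amino acid genes 1, Gldc. Ciart was lost without any 1 of the 6 compared arrays or week 2 replicate 1 (0.0526 to 0.121), and Emcn without control replicate 1 (0.0539) and without week 10 replicate 3, where its fold fell below 1.5.

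No gene was called in the lists of T and NK cells (13 measured), neutrophils (10), bile duct and ductular reaction (10), mesothelium (6), red blood cells (5), kidney and adrenal (8), intestine (8), immediate early genes (12), autophagy (17) and the unfolded protein response (17). As 2.07% of all genes were called, lists this short would hold few or no calls at that share, so their 0 says little about them. Of 17 autophagy genes 7 lay wholly below control and 0 wholly above, and of 8 intestine genes 4 and 0. Over all genes the shares were 14.5% and 11.1%. Mesothelial genes differed among the treated livers, with a list mean of 0.68 on replicate 1, −0.40 on replicate 2 and 0.18 on replicate 3.

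Of 59 measured genes in a list taken from the study's text and supplement, which does not hold every gene these name, 11 rose and 2 fell. The study picked these partly from these arrays, so they are no independent evidence of direction. Acpp, an acid phosphatase that the text names but the list lacks, rose by 1.05 (adjusted p = 0.0136). The rises were in Col1a1, Col1a2, Adgre1, Srebf2, Pmvk, Emcn and H2-Q1, given above, and in Acsl5, an acyl-CoA synthetase (0.73, adjusted p = 0.0152), Spats2 (0.63, adjusted p = 0.0114), Clcn6, a late endosomal chloride and proton exchanger (0.61, adjusted p = 0.0136), and Apon (0.62, adjusted p = 0.00929). The falls were in Glul and in Efhd2, a calcium-binding protein (−0.87, adjusted p = 0.0213). Not called were Egfr, the EGF receptor (−0.76, adjusted p = 0.128), Jun (−0.48, adjusted p = 0.545), Fos (0.11, adjusted p = 0.939), Cdc42 (0.33, adjusted p = 0.044, with a fold under 1.5), Pparg (−0.24, adjusted p = 0.368), Map1lc3b (−0.05, adjusted p = 0.906) and Lamp1 (0.04, adjusted p = 0.838). Single arrays ended the calls of Acsl5 (control replicate 3, week 10 replicates 1 and 2, adjusted p = 0.055 to 0.0589) and Efhd2 (control replicates 2 and 3, week 10 replicates 2 and 3, 0.0521 to 0.0698). Spats2, Clcn6 and Apon lost theirs where the fold fell below 1.5, namely Spats2 and Apon without control replicate 1, Clcn6 and Apon without week 10 replicate 1, and Spats2 without week 10 replicate 2.

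Replicate 2 of week 10 differed from its group beyond the pancreatic genes. It had 158 genes more than 1 log2 unit from the mean of the other 2 arrays, 89 above and 69 below, the most of the 18 arrays, against 71 and 117 for replicates 1 and 3. The largest excess was Ctrb1 (3.17), followed by Akr1c18, a steroid reductase (3.14), Sprr1a, a cornified envelope protein (3.08), Cpb1 (2.56) and the antibody segment Ighv2-9-1 (2.39). The largest shortfalls were Sult2a8, a sulfotransferase (−4.54), Slco1a1 (−4.08), Cyp8b1 (−3.94), Cyp2b9 (−3.20) and Csad, a taurine-forming enzyme (−2.80). Sult2a8 read 11.57, 11.38 and 11.33 in control and 10.16, 6.22 and 11.36 at week 10, so that only replicate 2 was far below control. Akr1c18 read 3.92, 3.90 and 3.99 in control and 4.79, 8.15 and 5.24 at week 10. The part of pancreatic RNA in these differences was not tested.

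The remaining genes among the largest changes belonged to no single list. Lgals1, galectin 1, went from 6.63, 6.29 and 6.65 to 8.48, 8.88 and 8.44 (2.08, SE 0.29, adjusted p = 0.0028), and Pygb, the brain form of glycogen phosphorylase, from 4.97, 4.79 and 5.22 to 7.07, 7.88 and 6.21 (2.06, adjusted p = 0.0121). Aqp8, a water channel, went from 6.96, 6.86 and 6.74 to 9.75, 8.30 and 8.76 (2.09, adjusted p = 0.0173), with a lost call without control replicate 3 (0.0635) or week 10 replicate 1 (0.0564). Of the falling genes, Clec2h, a C-type lectin, was low in all treated livers, at 4.48, 4.37 and 5.16 against 8.24, 8.29 and 8.39 in control (−3.64, SE 0.32, adjusted p = 9.2e-05). Adgrf1, an adhesion G-protein receptor, went from 7.64, 7.10 and 7.001 to 4.82, 4.82 and 4.62 (−2.49, SE 0.26, adjusted p = 0.000369). The pseudogene Serpina4-ps1 read 8.40, 11.83 and 11.07 in control and 5.51, 5.15 and 7.04 at week 10, wide in both groups (−4.54, adjusted p = 0.0403). Gpcpd1, a phosphodiesterase of choline metabolism, went from 11.04, 10.99 and 10.63 to 8.68, 7.24 and 9.10 (−2.55, adjusted p = 0.0255). Serpina4-ps1 lost its call without any 1 of control replicates 2 and 3, week 10 replicates 1 and 2 and 2 arrays of earlier weeks (0.0512 to 0.131), and Gpcpd1 without any 1 of the control arrays or week 10 replicates 1 and 2 (0.051 to 0.091).

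Set against the livers taken before it, week 10 had no called gene. Against week 8, 0 of 23111 genes (0.0%) passed limma's test, with 1695 at an unadjusted p under 0.05 and a smallest adjusted p of 0.298. Against the mean of weeks 2 to 8 it was also 0 (0.0%), with 2033 at an unadjusted p under 0.05 and a smallest adjusted p of 0.0693. A pair of genes came closest in the second comparison and were called under some of the other settings, which is why they are named. Il6ra, the interleukin 6 receptor, read 10.30, 10.26 and 10.36 in control, had means of 10.08, 9.83, 9.69 and 9.70 at weeks 2, 4, 6 and 8, and read 9.10, 9.16 and 9.41 at week 10. Against control it fell by 1.08 on the log2 scale (SE 0.10, adjusted p = 0.000199), and against weeks 2 to 8 its difference was −0.60 (adjusted p = 0.0693). Carhsp1, a cold shock domain protein, had means of 7.35, 6.88, 7.16 and 7.43 at weeks 2, 4, 6 and 8 and read 8.08, 7.80 and 8.06 at week 10, a difference of 0.77 (adjusted p = 0.0693). Week 10 was thus its highest group, also above the control livers at 7.63, 7.49 and 7.59, without a call there (0.41, adjusted p = 0.0868). Lists of the main comparison can be set beside the earlier weeks, whose comparison shares the control arrays: the male-biased list had means of −2.14, −1.77, −2.28 and −2.01 relative to control at weeks 2, 4, 6 and 8. Scd2 had means of 7.60, 7.87, 10.09 and 8.84, and Slc1a2 of 4.29, 4.29, 4.21 and 4.21, at the same weeks.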

How the data were processed

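Liver RNA was hybridised to Affymetrix Mouse Gene 2.0 ST arrays, which the labels call biological replicates. The deposited values are log2 intensities that the authors made by RMA with Brainarray probe sets based on Entrez IDs. The table held 23748 features, of which 23111 had a gene name and were tested, and 637 had none. limma 3.58.1 in R 4.3.3 fitted 1 mean per group over all 6 groups. Week 6 replicates 1 and 2, nearly identical, were averaged, leaving 17 samples and 11 residual degrees of freedom. The SD of their log2 differences over 500 variable genes was 0.137, against 0.347 to 0.832 for the other pairs within a group. Whether the pair came from 1 RNA sample is not known. The call needed a p below 0.05 after Benjamini-Hochberg adjustment and a difference over 1.5-fold. Each p-value sets a difference of group means against the spread between mice within the groups. That spread was pooled over all 6 groups, so the mice of the other weeks weigh on it too. The number of arrays limits the precision. The fit was tested on data with known changes. The alternatives changed the fold threshold, test, samples, variance model, array weights, block, filter, scaling and features, and left out each array in turn. Of each list the 5 members with the largest called changes are named, with the 20 largest rises and falls, the genes the study names, and the 5 largest excesses and shortfalls of replicate 2; other genes, such as those without a call, Acpp, Dhcr7, Il6ra and Carhsp1, were chosen after their values were seen. Members and lists were chosen with earlier results of these data known. The authors' own comparisons were not used.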

Additional observations from a re-analysis of the deposited data

Results flagged for a closer look

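Cd163, the haptoglobin-haemoglobin receptor of Kupffer cells, moved in opposite directions at week 2 and week 10 in every array. It read 6.19, 5.89 and 6.17 in control, had a mean of 6.66 at week 2, a difference from control of 0.58, and read 5.09, 5.59 and 5.35 at week 10, a difference of −0.74. The difference between the weeks was not tested. Among the 637 features without a gene name, which the comparisons left out, 28 were called at week 10 against control by the same rule, 17 higher and 11 lower, or 4.40%, with a largest rise of 1.75 and a largest fall of −2.48 on the log2 scale.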

How the results depend on the processing

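Against control, the count of 478 was 1151 without a fold threshold, 197 at a fold above 2 and 23 by limma's test against a fold of 1.5, and it lay between 250 and 514 when 1 array was left out, lowest without control replicate 3. It was 290 and 318 without week 10 replicates 2 and 1. The other settings gave 345 to 597, and with the replicate block it was 439. The replicate numbers did not pair the samples: the deviations of same-numbered control and week 10 arrays had correlations of 0.122, −0.023 and −0.067. Of the 111 called genes that are named, 18 were called under every alternative, and none reversed. The test against a fold ended the call of 92, a fold above 2 that of 28, the compared groups fitted alone that of 33 and the replicate block that of 9. Among those lost with the compared groups fitted alone were Moxd1, Mup9, Hmgcs1, Raet1d, Cyp17a1, Pygb and Mmp2 (adjusted p = 0.0519 to 0.085). Against week 8, no setting made a call except that without week 10 replicate 3, with 1 gene, a range of 0 to 1. Against weeks 2 to 8 the count of 0 became 2 with 18 separate arrays, with a robust trend, with the replicate block and with the filter on low values, and 0 to 2 with 1 array left out.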
